A study of Homo sapiens with 15 samples.

Results

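The 9 genes described here encode enzymes that cut the extracellular matrix or proteins at the cell surface, the inhibitors that hold them in check, and the urokinase system that turns plasminogen into plasmin. They are the collagenase MMP1, the membrane-anchored metalloproteinase MMP14, the inhibitors TIMP1, TIMP2 and TIMP3, the urokinase PLAU and its receptor PLAUR, and the sheddases ADAM10 and ADAM17. They were chosen by name, and all 9 were among the 59608 genes of the table and among the 13561 that averaged at least 10 normalized counts and were tested. MDA-MB-231, an established human triple-negative breast cancer line with a mesenchymal, invasive phenotype, was grown as a monolayer to near confluence and received 0.1% DMSO or ZJ-101 at 0.5, 5, 50 or 500 nM for 6 h. ZJ-101 is made by synthesis, and its parent compound is a sponge macrolide, superstolide A. Poly-A RNA was sequenced from 3 biological replicates per group, 15 libraries in all, and a value below is a read count divided by the size factor of its library. The dishes of a group come from a single cell line, so p-values measure the spread between dishes and not between tumours or donors. In such bulk libraries, a lower count can mean less of an RNA in each cell or fewer cells that carry it, and these cannot be told apart.

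Cells move through collagen-rich tissue by cutting it close to their own surface. MMP14 sits in the plasma membrane, cleaves fibrillar collagen and activates other metalloproteinases, while MMP1 is secreted and cuts interstitial collagen. TIMP proteins bind the active site of these enzymes. TIMP2 also bridges MMP14 to the proform of MMP2, TIMP1 is a weak inhibitor of MMP14, and TIMP3 binds to the matrix and is the TIMP known for blocking ADAM17. Urokinase bound to PLAUR turns plasminogen into plasmin at the cell surface, and plasmin digests fibrin and activates several pro-metalloproteinases. ADAM10 and ADAM17 release the outer parts of membrane proteins such as Notch receptors, growth factor precursors and TNF. mRNA alone was measured here, and no protein level or enzyme activity follows from it.

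Each library held 12415519 to 15284762 reads on genes, and mitochondrial genes took 0.889% to 2.06% of them. Of 8 genes known to be high in this line, all 8 were high, from a mean of 4427 normalized counts for KRT18 to 16892 for MSN. Among them, AXL passed limma as higher at 50 and 500 nM (12212 in DMSO, 14203 at 500 nM). CD44 passed as lower at the same doses (12154 in DMSO, 9336 at 500 nM). Of 7 genes known to be low or absent in this line, ESR1, the oestrogen receptor, averaged 0.744 and the others were detected, with PGR at 13.7, CLDN3 at 49.0, GATA3 at 145, CDH1 at 147 and ERBB2 at 1211. CDH1 passed as lower by limma at 0.5, 5 and 500 nM, and the call at 0.5 nM was lost with DESeq2. Of the markers of other cells, 5 of 7 for fibroblasts, 5 of 6 for leukocytes and 2 of 4 for endothelium averaged under 10. The summed endothelial markers were 350 to 398 in the DMSO libraries and 399 to 441 at 500 nM, and the summed leukocyte markers 31.5 to 39.4 and 15.9 to 20.2. CD3E, which defines T cells, was listed at 0, and VWF, which defines endothelium, averaged 0.665. Other endothelial markers were expressed, and KDR passed as higher at 50 nM (0.66, limma adjusted p 0.0032) and at 500 nM (from 111 to 196, adjusted p 0.00019), while PECAM1 averaged 251. The summed fibroblast markers were 258 to 291 in DMSO, 219 to 235 at 0.5 nM, 232 to 240 at 5 nM, 254 to 266 at 50 nM and 224 to 283 at 500 nM. CD14, a monocyte marker, passed as lower at 50 nM (-1.01, limma adjusted p 0.049), a call lost with DESeq2. It passed as lower at 500 nM as well (27.8 to 10.5, -1.39, limma adjusted p 0.0022). The part of these genes in the results below was not tested. Between replicates of a group, 0.5 nM replicate 2 stood apart, with chi-square values per degree of freedom at 10.2 and 15.1 against its partners, where all other pairs lay between 1.96 and 5.81.

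MMP14, ADAM10, PLAU and PLAUR fell to between 50.8% and 67.6% of their DMSO means at 50 nM and to between 38.7% and 57.5% at 500 nM, while the 3 inhibitors lay between 81.3% and 93.7% at 500 nM. MMP1 rose at the lower doses and fell at 500 nM. At 500 nM, 8 of the 9 genes fell and TIMP2 did not pass the test, where 17.8% of all tested genes passed in either direction and 10.1% passed as lower. At 50 nM, 5 fell (MMP14, PLAU, PLAUR, ADAM10 and TIMP3), against 6.00% of all tested genes in either direction and 3.71% lower. At 5 nM MMP1 rose and TIMP3 fell, against 2.18% in either direction, 0.465% higher and 1.71% lower. At 0.5 nM MMP1 alone rose, against 1.17% in either direction and 0.251% higher. These shares depend on single libraries: over leaving out each in turn, the share in either direction ran from 0.140% (without DMSO replicate 1) to 2.88% (without 0.5 nM replicate 3) at 0.5 nM, and from 0.833% (without DMSO replicate 1) to 4.59% (without 0.5 nM replicate 2) at 5 nM. It ran from 4.13% to 9.41% at 50 nM and from 13.2% to 22.8% at 500 nM, with both of these highest values again without 0.5 nM replicate 2. No member rose at 50 or 500 nM by limma, also at an unadjusted p under 0.05, and edgeR and DESeq2 gave 0 as well. The median log2 fold change of the 9 genes at 500 nM was -0.53, and that of all tested genes was 0.0027. All dose comparisons share the same 3 DMSO libraries. Changes are limma log2 fold changes of normalized counts plus 1, and adjusted p is Benjamini-Hochberg over all tested genes, with 0.05 as the threshold.

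**Figure D1:**
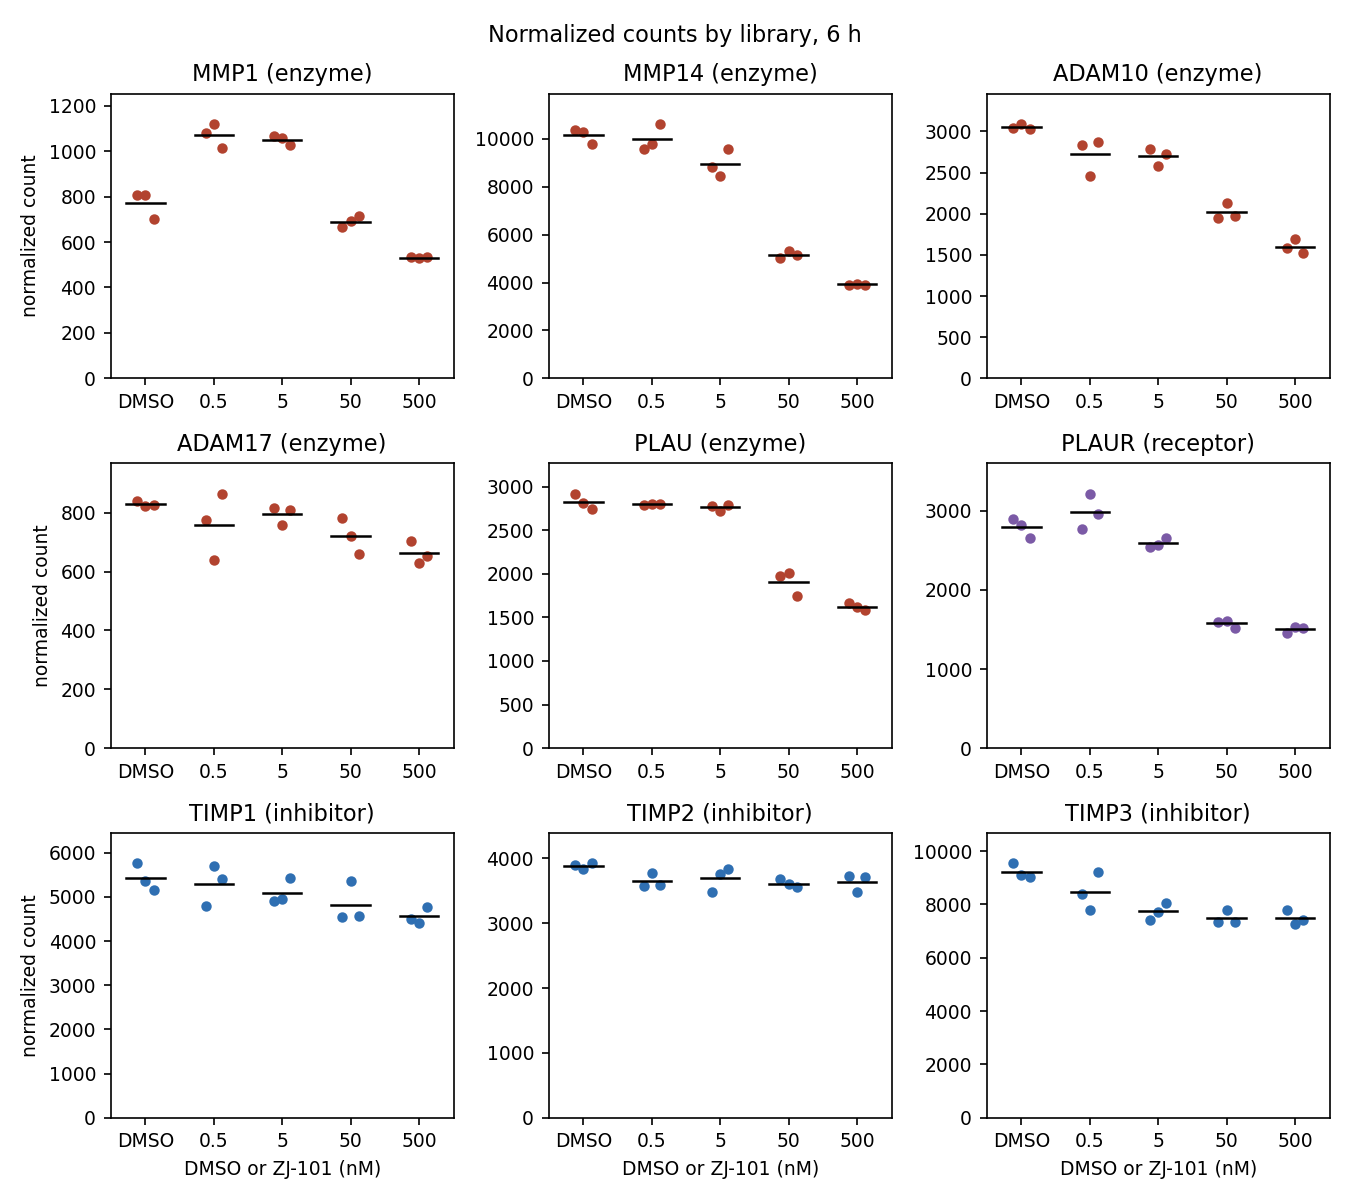
Normalized counts (vertical axes, from 0) of the 9 genes in each of the 15 libraries by group (horizontal axis, DMSO or ZJ-101 in nM). Points are libraries and black lines are the mean of 3. MMP14, ADAM10, PLAU and PLAUR step down between 5 and 50 nM, MMP1 is highest at 0.5 and 5 nM, and TIMP2 stays within 3478 to 3920 in all libraries.

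The upstream sequences of the 4 genes that fell most at 500 nM are shown because these genes moved together with dose. Each line is the 250 bases before the RefSeq start site (GRCh38.p14), 5′ to 3′ on the strand of the gene. Capitals mark the AP-1 letters TGANTCA and the SP1 letters GGGCGG on either strand. RefSeq has a start site of PLAU further upstream as well, and the window shown is that of its MANE transcript. The windows are chr14:22836335-22836584 for MMP14 (plus strand), chr10:73910882-73911131 for PLAU (plus strand), chr19:43670170-43670419 for PLAUR (minus strand) and chr15:58749708-58749957 for ADAM10 (minus strand).

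MMP14: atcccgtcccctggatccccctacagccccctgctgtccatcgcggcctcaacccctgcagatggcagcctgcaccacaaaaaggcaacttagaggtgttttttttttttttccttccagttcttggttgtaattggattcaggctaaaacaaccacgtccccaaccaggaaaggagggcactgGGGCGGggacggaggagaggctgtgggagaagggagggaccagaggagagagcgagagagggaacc

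PLAU: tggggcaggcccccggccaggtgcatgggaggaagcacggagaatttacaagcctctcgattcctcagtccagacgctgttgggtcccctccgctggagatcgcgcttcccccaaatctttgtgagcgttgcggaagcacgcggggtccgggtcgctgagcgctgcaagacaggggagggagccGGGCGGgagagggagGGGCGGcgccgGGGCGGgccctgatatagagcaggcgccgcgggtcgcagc

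PLAUR: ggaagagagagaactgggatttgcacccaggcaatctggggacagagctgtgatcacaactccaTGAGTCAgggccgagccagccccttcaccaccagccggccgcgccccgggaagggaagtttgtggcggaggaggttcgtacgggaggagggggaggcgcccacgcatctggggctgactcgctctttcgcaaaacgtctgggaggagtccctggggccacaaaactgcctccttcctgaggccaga

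ADAM10: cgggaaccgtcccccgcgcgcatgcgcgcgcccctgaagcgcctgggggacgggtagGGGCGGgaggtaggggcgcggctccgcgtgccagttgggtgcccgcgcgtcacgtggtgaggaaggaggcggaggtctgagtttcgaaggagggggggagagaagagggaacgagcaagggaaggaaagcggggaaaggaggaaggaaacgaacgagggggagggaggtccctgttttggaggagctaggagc

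The AP-1 letters were found in PLAUR alone of these, 186 bases before the start (-186), and 6.57% of 35116 human upstream windows of this length hold them. The SP1 letters were found once in MMP14 (-66), 3 times in PLAU (the first at -66), once in ADAM10 (-193) and not in PLAUR, and 42.6% of windows hold them. CCAAT, present in 32.0% of windows, was found in MMP14 (-118). The window of the other PLAU start site, which is not printed, held CCAAT (-182) and no SP1 or AP-1 letters. The letters TATAAA (10.7% of windows) were in none of these 4. The RefSeq table used here also held TIMP1, TIMP3 and ADAM17, with 2, 5 and 3 matches to the SP1 letters and none to AP-1. CCAAT was found in TIMP3 (-88) as well. No window was available for MMP1 or TIMP2, so neither was searched for any of these letters. None of these letters was found in the printed windows of all 4 genes that fell most. Bases outside the windows and inexact matches were not searched, and the regulation of these genes was not tested.

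MMP14 had the largest fall of the set. It is on chromosome 14 (GRCh38, 22836560 to 22849041, plus strand), with 10 exons in its MANE transcript, the reference transcript chosen jointly by NCBI and Ensembl. Its normalized counts were 10347, 10281 and 9778 in DMSO, 9582, 9796 and 10612 at 0.5 nM, and 8804, 8435 and 9580 at 5 nM. At 50 nM they were 5005, 5303 and 5137, and at 500 nM 3911, 3948 and 3910. The 6 libraries of the 2 higher doses lay far below all 9 others, and the 500 nM libraries all lay below the 50 nM libraries. MMP14 was at 50.8% of its DMSO mean at 50 nM (log2 fold change -0.98, SE 0.0493, limma adjusted p 3.5e-10) and at 38.7% at 500 nM (-1.37, SE 0.0493, adjusted p 8.3e-13). Among the 6697 genes that were lower at 500 nM it was number 4 by p. At 5 nM its libraries were all below those of DMSO, with a log2 fold change of -0.18 (95% interval -0.29 to -0.08) that missed the threshold (adjusted p 0.064) in the fit of all groups. It passed with DESeq2 (0.019), with the same total of reads in every library (0.041), with DMSO and 5 nM alone in the fit (0.016), and without 0.5 nM replicate 2 (0.025), 0.5 nM replicate 3 (0.037) or 5 nM replicate 3 (0.024).

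MMP1 moved in opposite directions at low and high dose. It lies on chromosome 11 (102789401 to 102798160, minus strand) in the metalloproteinase gene cluster. Its normalized counts were 808, 805 and 701 in DMSO, 1081, 1119 and 1013 at 0.5 nM, and 1065, 1057 and 1025 at 5 nM. They were 664, 691 and 716 at 50 nM, and 533, 530 and 533 at 500 nM. All 6 low-dose libraries were above every DMSO library, the 50 nM libraries overlapped DMSO, and the 500 nM libraries were below all others. MMP1 rose 1.39-fold at 0.5 nM (log2 fold change 0.47, SE 0.0585, limma adjusted p 0.00058, and 0.44 with adjusted p 0.00097 without replicate 2) and 1.36-fold at 5 nM (0.45, adjusted p 0.00035). At 0.5 nM it was number 3 by p among the 6453 genes that were higher. At 50 nM it was at -0.16 (interval -0.28 to -0.03), which missed the adjusted threshold (adjusted p 0.14, and 0.03 without DMSO replicate 3) and was under an unadjusted p of 0.05 by limma, edgeR and DESeq2. At 500 nM it fell to 68.9% of DMSO (-0.53, adjusted p 2.4e-06).

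The urokinase and its receptor fell together from 50 nM. PLAU, on chromosome 10 (73909177 to 73917496, plus strand), had normalized counts of 2918, 2816 and 2740 in DMSO and between 2719 and 2799 in the 6 libraries of 0.5 and 5 nM. It had 1980, 2011 and 1741 at 50 nM and 1662, 1621 and 1588 at 500 nM. No library of the 2 higher doses reached any of the other groups, and the 500 nM libraries were all below those of 50 nM. PLAU was at 67.6% of DMSO at 50 nM (log2 fold change -0.57, SE 0.0489, limma adjusted p 2.7e-07) and at 57.5% at 500 nM (-0.80, adjusted p 1.1e-09). At 0.5 and 5 nM its change was -0.01 (interval -0.12 to 0.09) and -0.03 (-0.13 to 0.07).

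PLAUR, on chromosome 19 (43646095 to 43670547, minus strand), had normalized counts of 2899, 2822 and 2660 in DMSO, 2771, 3217 and 2961 at 0.5 nM and 2548, 2572 and 2653 at 5 nM. It had 1598, 1609 and 1524 at 50 nM and 1458, 1532 and 1519 at 500 nM. The 50 and 500 nM libraries overlapped each other and lay below all others. The receptor was at 56.4% of DMSO at 50 nM (log2 fold change -0.82, SE 0.0515, limma adjusted p 4.3e-09) and at 53.8% at 500 nM (-0.89, adjusted p 5.2e-10). Between 50 and 500 nM its change was -0.07 (interval -0.18 to 0.04, adjusted p 0.62), while PLAU fell in that step by 0.23 on the log2 scale (adjusted p 0.014). The PLAU step rests on single libraries: without 50 nM replicate 1 or 2 its adjusted p was 0.068 or 0.099, and without 500 nM replicate 2 or 3 it was 0.06 or 0.084. The difference between these 2 steps was not tested.

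ADAM10, the sheddase of Notch receptors and cadherins, fell far more in value than its relative ADAM17. ADAM10 lies on chromosome 15 (58588809 to 58749791, minus strand) and had normalized counts of 3041, 3090 and 3031 in DMSO. It had 2838, 2461 and 2873 at 0.5 nM, 2785, 2584 and 2722 at 5 nM, 1947, 2132 and 1976 at 50 nM, and 1580, 1691 and 1523 at 500 nM. Every treated library was below every DMSO library, with 0.5 nM replicate 2 the lowest of the low doses. ADAM10 was at 66.1% of DMSO at 50 nM (log2 fold change -0.60, SE 0.0579, limma adjusted p 1.1e-06) and at 52.3% at 500 nM (-0.94, adjusted p 1.2e-09). At 0.5 and 5 nM the changes were -0.17 (interval -0.29 to -0.05) and -0.18 (-0.30 to -0.06), with adjusted p of 0.17 and 0.13. Without 0.5 nM replicate 2 the change at 0.5 nM was -0.10 (adjusted p 0.44). The change at 5 nM passed with DMSO and 5 nM alone in the fit (0.0068) and without 0.5 nM replicate 2 (0.023).

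ADAM17, the sheddase of TNF and of EGF receptor ligands, is on chromosome 2 (9488486 to 9556732, minus strand). It had normalized counts of 839, 822 and 827 in DMSO and 705, 629 and 653 at 500 nM, which do not overlap. The groups between ran from 641 to 865, and 0.5 nM replicate 2 at 641 was again the lowest of the low-dose libraries. ADAM17 was at 79.9% of DMSO at 500 nM (log2 fold change -0.33, interval -0.51 to -0.15, limma adjusted p 0.011), and that call was lost without 500 nM replicate 2 (0.057). At 50 nM it was -0.20 (adjusted p 0.21, and 0.046 when 0.5 nM replicate 2 was dropped from the fit, since all groups share 1 estimate of the spread).

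The inhibitors changed less in value than MMP14 at every dose from 50 nM. TIMP3, on chromosome 22 (32801705 to 32863041, plus strand), had normalized counts of 9535, 9088 and 9015 in DMSO and 8402, 7798 and 9203 at 0.5 nM. It had 7431, 7714 and 8071 at 5 nM, 7326, 7801 and 7339 at 50 nM, and 7779, 7264 and 7425 at 500 nM. Every library from 5 nM upwards was below every DMSO library, and these 3 dose groups overlapped each other. TIMP3 was at 84.0% of DMSO at 5 nM (log2 fold change -0.25, SE 0.0541, limma adjusted p 0.017) and at 81.3% at 50 nM (-0.30, adjusted p 0.0014) and at 500 nM (-0.30, adjusted p 0.00059). At 0.5 nM it was -0.12 (adjusted p 0.30), and -0.07 (0.62) without replicate 2. The call at 5 nM was lost on leaving out DMSO replicate 1 (0.11), DMSO replicate 2 (0.065), 5 nM replicate 1 (0.1) or 5 nM replicate 2 (0.072).

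TIMP1, on chromosome X (47582408 to 47586789, plus strand), had normalized counts from 5144 to 5755 in DMSO and from 4402 to 4782 at 500 nM, which do not overlap. The groups between ran from 4549 to 5699 and all overlapped DMSO, and of these the 50 nM group alone overlapped 500 nM. It was at 84.1% of DMSO at 500 nM (log2 fold change -0.25, interval -0.40 to -0.10, limma adjusted p 0.018). That call was lost when DMSO replicate 1 (0.099), 500 nM replicate 1 (0.058) or 500 nM replicate 2 (0.077) was left out, and TIMP1 passed at 50 nM only without 50 nM replicate 2 (0.039).

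TIMP2, on chromosome 17 (78852977 to 78925387, minus strand), was the member that passed at no dose by limma, edgeR or DESeq2, although it was lower at 50 and 500 nM at an unadjusted p under 0.05 by limma. Its normalized counts were 3893, 3830 and 3920 in DMSO and 3721, 3481 and 3710 at 500 nM, which do not overlap, and its treated libraries ran from 3478 to 3840. The change at 500 nM was -0.09 with an interval of -0.186 to -0.0023 (limma adjusted p 0.16), so a fall of the size of that of MMP14 lies outside the interval. By overlap of libraries alone, all 9 members were lower at 500 nM than in DMSO, and 19.6% of all tested genes were.

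**Figure D2:**
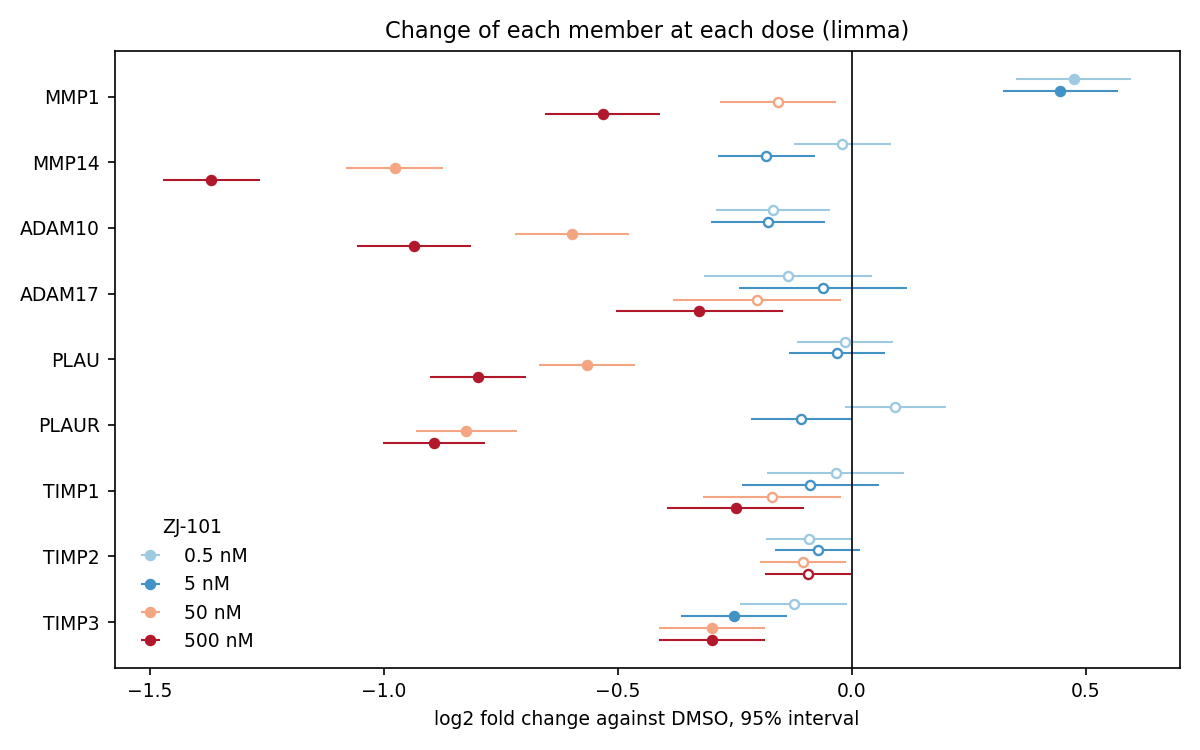
Log2 fold change against DMSO (horizontal axis) of each of the 9 genes (rows) at each ZJ-101 dose (colour), from limma with 95% intervals from 3 libraries per group. Filled points passed an adjusted p of 0.05 and open points did not. MMP14 reaches -1.37 at 500 nM, MMP1 alone is above 0 with filled points, and TIMP2 has none.

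For every member but TIMP3, the step from 5 to 50 nM was the largest of the 3 steps in value, although for ADAM17, TIMP1 and TIMP2 it did not pass. Differences between steps were not tested. From 0.5 to 5 nM no member passed limma, edgeR or DESeq2 (0.118% of all tested genes passed limma), although MMP14, TIMP3 and PLAUR, 3 members, were lower at an unadjusted p under 0.05 by each of the 3 tools. From 5 to 50 nM 5 members fell, where 5.01% of all tested genes passed in either direction and 2.39% as lower. The falls on the log2 scale were -0.79 for MMP14 (limma adjusted p 1.2e-08), -0.72 for PLAUR (7.2e-08), -0.60 for MMP1 (2e-06), -0.54 for PLAU (9.3e-07) and -0.42 for ADAM10 (0.00016). From 50 to 500 nM 4 members fell, where 2.28% of all tested genes passed in either direction and 1.80% as lower. These were MMP14 (-0.39, adjusted p 0.00016), MMP1 (-0.37, 0.0013), ADAM10 (-0.34, 0.0028) and PLAU (-0.23, 0.014). The shares of all tested genes in these steps also depend on single libraries. Over leaving out each in turn, the share in either direction ran from 0.0516% to 0.184% from 0.5 to 5 nM. It ran from 3.13% to 8.33% from 5 to 50 nM and from 1.02% to 4.65% from 50 to 500 nM. No inhibitor passed in any of the 3 steps by limma, edgeR or DESeq2, and at an unadjusted p under 0.05 TIMP3 alone did, from 0.5 to 5 nM. TIMP3 was at 7489 at both of the higher doses.

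**Figure D3:**
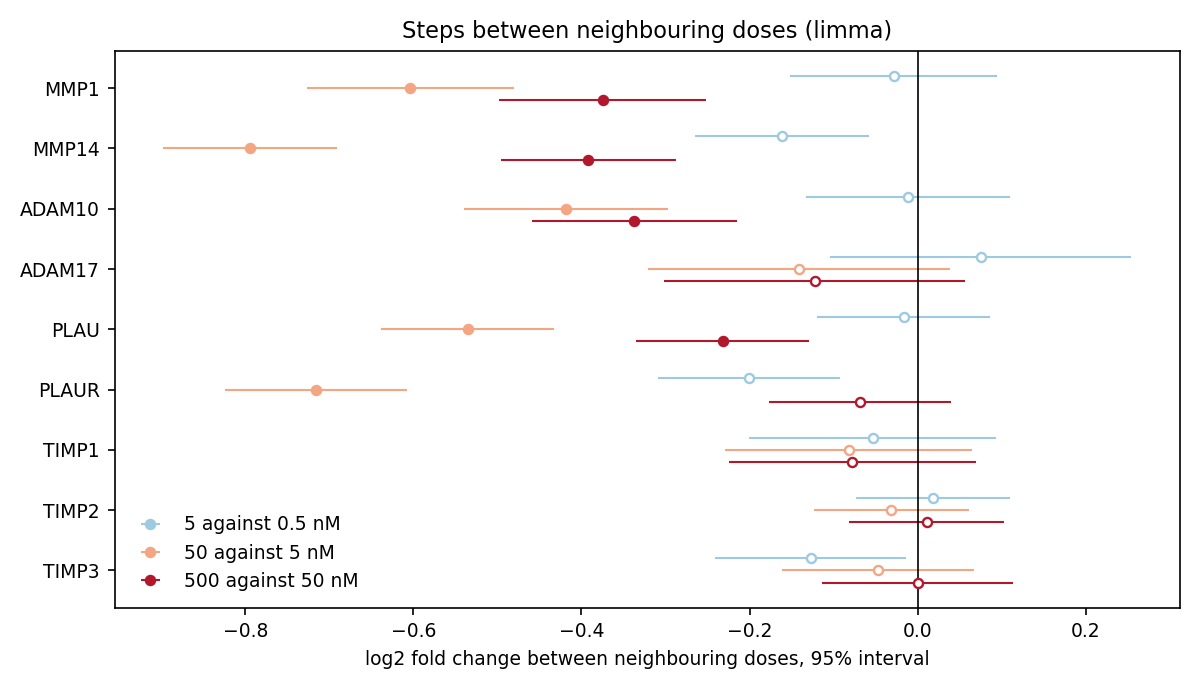
Log2 fold change between neighbouring ZJ-101 doses (horizontal axis) for the 9 genes (rows), from limma with 95% intervals from 3 libraries per group. Filled points passed an adjusted p of 0.05. The step from 5 to 50 nM reaches -0.79 for MMP14 and -0.72 for PLAUR, whose next step of -0.07 did not pass.

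Because enzyme and inhibitor moved unequally, their mRNA ratio was computed in each library from normalized counts, which is a ratio of reads and not of molecules. TIMP2 to MMP14 averaged 0.383 ± 0.0154 (SD, n = 3) in DMSO, 0.365 at 0.5 nM, 0.414 at 5 nM, 0.702 at 50 nM and 0.927 ± 0.0396 at 500 nM. Its 500 nM libraries (0.882 to 0.952) lay above all those of DMSO (0.373 to 0.401), a log2 difference of 1.27. TIMP1 to MMP1 averaged 7.04 ± 0.348 in DMSO, fell in value to 4.96 at 0.5 nM and 4.86 at 5 nM, and reached 8.57 ± 0.357 at 500 nM. PLAU to PLAUR stayed between 0.941 and 1.21 in all group means, with 1.01 in DMSO and 1.08 at 500 nM. TIMP3 to ADAM17 was 11.1 in DMSO and 11.3 at 500 nM, with libraries that overlap. Between these doses it was 11.22 at 0.5 nM, 9.745 at 5 nM and 10.42 at 50 nM. Its 5 nM libraries (9.084 to 10.18) lay below all those of DMSO (10.9 to 11.37). With 3 libraries against 3, the exact two-sided permutation test cannot go below p = 0.1. It gave 0.1 for the first 3 ratios at 500 nM against DMSO and 0.4 for the last (0.133 and 0.4 after adjustment over the 4 ratios). A test that cannot reach the threshold at this size decides nothing about the ratios, and the values and their spread stand as a description.

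Divided by the length of the MANE transcript, a rough scale for comparing genes, TIMP1 was the most abundant member in DMSO (7048 ± 403 normalized counts per kb). MMP14 came next (2739 ± 84.1), then PLAUR (2042 ± 89.2) and TIMP3 (2004 ± 61.2), whose libraries overlap. PLAU (1206), TIMP2 (1063), MMP1 (391), ADAM10 (274) and ADAM17 (189) followed. At 500 nM, TIMP1 remained highest at 5930, and TIMP3 (1629) was in second place. PLAUR (1099), MMP14 (1060) and TIMP2 (996) came after it. The libraries of PLAUR and MMP14 overlapped at 500 nM, as did those of ADAM17 (151) and ADAM10 (143), so the order within those pairs is not resolved. MMP14 was above TIMP3 per kb in DMSO and below it at 500 nM, with no overlap in either group. Such values depend on the length chosen. All annotated exons together cover 4457 bases for PLAUR, against 1368 in its MANE transcript, and 4597 for TIMP3 by either measure.

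The gene most like MMP14 over the 15 libraries was COL13A1, a transmembrane collagen, with Pearson r of 0.994 on log2 values. Its mean normalized counts were 4937 in DMSO, 5049, 4792 and 3049 at 0.5, 5 and 50 nM, and 2579 at 500 nM. PRSS23, a secreted serine protease, had r of 0.988 and went from 9018 in DMSO to 5127 at 500 nM, and SLC38A10 had 0.987 and went from 1291 to 731. Among the members, PLAU had 0.986 (number 9 of all tested genes), PLAUR 0.975, ADAM10 0.972 and MMP1 0.843. TIMP1 had 0.75, TIMP3 0.72, ADAM17 0.70 and TIMP2 0.403. These coefficients describe 15 libraries in 5 dose groups, which share the doses, and carry no test.

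Of the wider metalloproteinase family, most was too low to test in this line. Of the 23 MMP genes listed, 6 were tested, and besides MMP1 and MMP14 the membrane-type MMP15 fell from 253 ± 10.0 in DMSO to 118 ± 10.8 at 500 nM (log2 fold change -1.10, limma adjusted p 1.4e-06). MMP17, a GPI-anchored member, fell from 32.2 to 14.7 (-1.15, adjusted p 0.0093), a call lost without 500 nM replicate 3 (0.059). MMP16, another membrane-type member, averaged 137 in DMSO, 93.6 at 50 nM and 114 at 500 nM. It passed as lower at 50 nM (-0.55, adjusted p 0.019), a call lost when any DMSO library or 50 nM replicate 1 or 2 was dropped (0.054 to 0.094). In all, 4 of the 6 fell at 500 nM, beside 10.1% of all tested genes. Of the 5 inhibitors, TIMP1 and TIMP3 fell, and TIMP2, TIMP4 and the membrane inhibitor RECK did not pass. RECK went from 258 to 223 with a log2 fold change of -0.21 (adjusted p 0.23).

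Of 15 genes of the plasminogen system described here, 10 were tested, and PLAU and PLAUR were those that passed at 50 and at 500 nM, both as lower, where 3.71% and 10.1% of all tested genes were lower. PLAT, the tissue-type activator, was at 2364 ± 83.8 in DMSO and 2299 ± 52.0 at 500 nM (-0.04, adjusted p 0.73). ANXA2 and S100A10, which form a plasminogen receptor, had changes of -0.09 and -0.15 and did not pass.

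**Figure D4:**
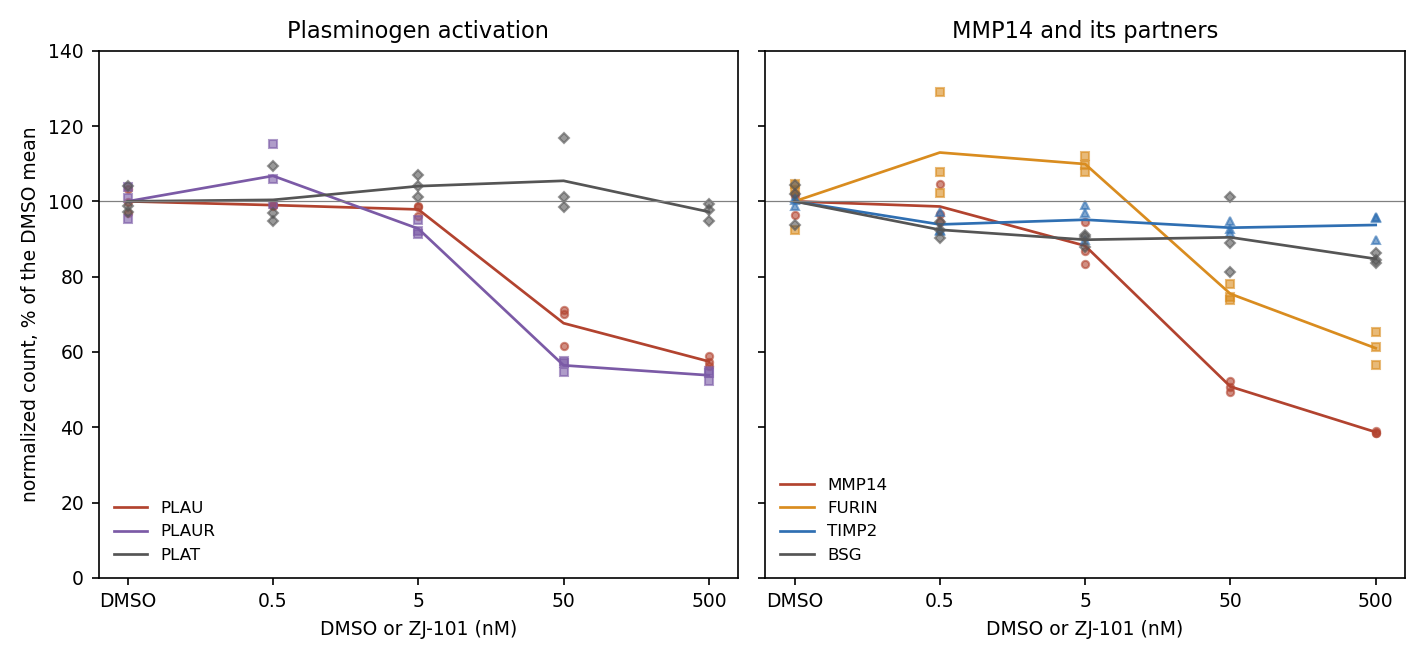
Normalized counts as a percentage of the DMSO mean (vertical axis) by group (horizontal axis, DMSO or ZJ-101 in nM). Points are libraries and lines join the means of 3. In the left panel PLAU and PLAUR end at 57.5% and 53.8% at 500 nM while PLAT, which did not pass the test, lies higher, and in the right panel MMP14 ends at 38.7%, below FURIN, BSG and TIMP2.

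Of genes that activate or accompany these proteases, 9 of 14 were tested and 7 fell at 500 nM, beside 10.1% of all tested genes, and 4 without DMSO replicate 1. FURIN, a proprotein convertase that cleaves the proforms of MMP14, ADAM10 and ADAM17, had normalized counts of 564, 556 and 498 in DMSO and 398, 421 and 402 at 50 nM, and averaged 329 ± 23.1 at 500 nM. Its libraries at 50 and 500 nM were below all DMSO libraries, while 0.5 and 5 nM (610 and 593 on average) did not pass. FURIN fell at 50 nM (log2 fold change -0.40, limma adjusted p 0.0031) and at 500 nM (-0.71, adjusted p 3e-06). The related convertase PCSK6 fell from 299 ± 29.1 to 147 ± 3.91 at 500 nM (-1.01, adjusted p 1.7e-07) and PCSK5 from 53.9 to 28.2 (-0.91, adjusted p 0.00048). SPINT1, an inhibitor of surface serine proteases, fell from 191 to 86.9 (-1.16, adjusted p 0.00029). BSG, known as an inducer of metalloproteinases, fell by 0.24 on the log2 scale (adjusted p 0.0097, and 0.057 without DMSO replicate 1). SPINT2 fell by 0.18, a call lost on dropping DMSO replicate 1 (0.076) or 500 nM replicate 2 (0.063). ST14 fell by 0.67 at an adjusted p of 0.035, which became 0.061 to 0.17 on dropping any DMSO library or 500 nM replicate 1 or 2, and 0.12 with DESeq2 and likewise with no filter on low values.

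Of 10 ADAM genes tested, 5 fell at 500 nM, beside 10.1% of all tested genes. The count became 2 without 500 nM replicate 2 and 3 without 500 nM replicate 3 or DMSO replicate 2. Besides ADAM10 and ADAM17, ADAM8 fell from 4204 ± 71.4 to 3472 ± 48.3 (log2 fold change -0.28, limma adjusted p 0.0016). ADAM15 fell by 0.15 (adjusted p 0.031), which became 0.072 to 0.11 on dropping any 500 nM library, DMSO replicate 1 or 2, or the filter on low values. ADAM23 fell by 0.81 (adjusted p 0.018), which became 0.052 to 0.098 on dropping replicate 2 or 3 of either group. ADAM9 did not pass (-0.09, adjusted p 0.43). Of 9 tested genes whose products carry ADAM10 or ADAM17 through the secretory pathway, 2 passed at 500 nM, a share near the 17.8% of all tested genes. TSPAN14 rose. This tetraspanin, which takes ADAM10 out of the endoplasmic reticulum, went from 2635 ± 30.1 to 3776 ± 28.3 at 500 nM (0.52, adjusted p 9.1e-08). FRMD8, which stabilises the complex of ADAM17 with iRhom, fell from 602 to 502 (-0.26, adjusted p 0.019), a call lost without DMSO replicate 2 or 500 nM replicate 3 (0.11 each). The remaining 7 did not pass, among them RHBDF2, which encodes iRhom2 (0.13, adjusted p 0.18).

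The secreted ADAMTS proteases, which cut proteoglycans and procollagens, went both ways. Of 7 tested, 4 fell and 2 rose at 500 nM, where 17.8% of all tested genes passed in either direction. ADAMTS1 had mean normalized counts of 717 in DMSO, 814 at 0.5 nM, 939 at 5 nM, 847 at 50 nM and 518 at 500 nM. It rose at 5 nM (0.39, limma adjusted p 0.0033) and fell at 500 nM (-0.47, adjusted p 4e-05). At 50 nM it passed as higher (0.24, adjusted p 0.036), a call lost when any DMSO library, 5 nM replicate 2, or 50 nM replicate 1 or 3 was dropped (0.05 to 0.22) and with no filter on low values (0.067). ADAMTS15 fell from 696 ± 36.1 to 368 ± 7.75 (-0.92, adjusted p 5.2e-07) and ADAMTS3 from 87.0 to 40.1 (-1.10, adjusted p 5e-06). ADAMTS9 fell as well (-0.89, adjusted p 0.0023). ADAMTS16 rose from 155 ± 16.7 to 253 ± 8.21 (0.71, adjusted p 5.8e-05) and ADAMTS6 from 32.8 to 50.7 (0.61, adjusted p 0.023), a call lost without DMSO replicate 3 (0.11) or 500 nM replicate 3 (0.13), with DESeq2 (0.061) and with no filter on low values (0.059).

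In the annotation (GENCODE 44, GRCh38), MMP14, TIMP1, TIMP3 and PLAUR share no exon bases with another gene, and no member has a near-identical copy. TIMP1 lies inside SYN1 and TIMP3 inside SYN3, in introns. For PLAU, 31.0% of exon bases overlap C10orf55 on the opposite strand, which averaged 10.9 normalized counts in DMSO and 8.71 at 500 nM. For ADAM17, 10.3% overlap IAH1 on the opposite strand, which averaged 393 and 370 (log2 fold change -0.09, limma adjusted p 0.457). Of the exon bases of MMP1, 8.1% overlap WTAPP1, which was listed at 0 in all DMSO libraries. Of those of TIMP2, 9.5% overlap other genes, among them CEP295NL on the same strand (3.6%), which averaged 1.33 normalized counts in DMSO. Whether counting used the strand is not given in the sources used here, so reads from such overlaps cannot be told apart.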

How the data were processed

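MDA-MB-231 cells were sampled after 6 h with DMSO or ZJ-101, in 5 groups of 3 libraries. The authors used HISAT2 (hg38) for alignment and HTSeq for counting, and deposited counts divided by DESeq2 size factors, a signal used here as deposited. Versions and strandedness are not given in the sources used here. In every library 100.0% of values were whole multiples of a common step (tolerance 0.001), from which reads were recovered. 1 line without a gene was left out.

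limma 3.58.1 (R 4.3.3, variance trend) was fitted to log2(normalized count + 1) for 13561 genes that averaged 10 or more, with the 5 groups in 1 fit (10 residual degrees of freedom), and was tested on simulated data. edgeR 4.0.16 and DESeq2 1.42.0 on recovered reads, other pseudocounts, filters and scalings, the replicate number as a block and leaving out each library were alternatives. minimap2 2.31-r1302 searched for copies (at least 95% identity over 50% of a transcript). Between replicates, chi-square per degree of freedom was 1.96 to 15.1 (highest for 0.5 nM replicate 2), so no library was a duplicate. The members, the lists and the rule for named genes (all members, the 3 genes most like the member with the smallest p, and, optionally, listed genes that passed at 50 or 500 nM) were chosen with earlier results of these data known. Other listed genes, ratios and markers were read in the same fit or libraries, and a few that did not pass are named for their roles. An item withheld from this text is not reported here.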

Additional observations from a re-analysis of the deposited data

How the results depend on the processing

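The number of members called at 5 nM, 2 in the fit of all groups, became 4 when the dose and DMSO alone were fitted (ADAM10 and MMP14 joined), and ran from 1 to 4 as single libraries were left out. It was 4 without 0.5 nM replicate 2 and 1, MMP1 alone, on leaving out DMSO replicate 1, DMSO replicate 2, 5 nM replicate 1 or 5 nM replicate 2. The counts at the other doses and steps stayed within 1.5 times, and no direction turned. At 500 nM the count of 8 became 6 without 500 nM replicate 2, with ADAM17 and TIMP1 lost. It became 7 without DMSO replicate 1 or 500 nM replicate 1, with TIMP1 lost. For the 32 member results called in some setting or compared at 50 or 500 nM with DMSO, 768 of 791 alternative values kept direction and call, 12 lost it and 11 gained it, as named beside each gene. For other listed genes, only results called in the fit of all groups entered this count, so no call could be gained. Of their 842 alternative values, 771 kept direction and call and 71 lost the call. Replicate numbers did not pair the libraries (same-number correlations of deviations -0.0855 to 0.0961), and with the replicate block the counts were 1, 2, 5 and 8 from 0.5 to 500 nM and 0, 5 and 4 for the steps. With 12415519 to 15284762 reads per library, genes under 10 normalized counts were not tested.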
